A study of Homo sapiens with 6 samples.

Results

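The 10 genes examined form 5 pairs whose exons overlap in the genome: TMEM265 and SRCAP, MIR3917 and STMN1, UTS2B and CCDC50, CCDC183-AS1 and CCDC183, and DPCD and POLL. They were taken from the 59608 genes of the deposited count table. TMEM265, MIR3917 and UTS2B were chosen because they had the smallest unadjusted p-values among genes higher in VEZF1-WT, and CCDC183-AS1 and DPCD because they were among the 3 smallest in the other direction. The partner of each came in through the shared exon bases alone. Since the comparison between groups chose the members, their differences below are descriptions, and the p-values named are the values that chose them.

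RNA-seq was performed on HepG2, a human hepatocellular carcinoma cell line. In all 6 libraries a lentivirally delivered sgRNA had been used to remove endogenous VEZF1, a zinc finger transcription factor that binds runs of guanines. Wild-type VEZF1 was then put back in 3 libraries (VEZF1-WT), and a form with both O-GlcNAc serines changed to alanine in the other 3 (VEZF1-2A). No library of unedited cells or of knockout cells without re-expression was analysed here, so the removal of the endogenous gene could not be checked. Whether cells came from 1 clone, and whether the 3 libraries of a group came from separate cultures, was not stated in the labels, so every spread given here is that between libraries and may be technical.

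Neighbouring genes can overlap in several ways. A downstream gene may begin inside the last exon of the gene before it, a microRNA hairpin may sit inside a host transcript, and genes on opposite strands may overlap at their first or last exons. A short read that falls in a shared exon does not by itself say which transcript it came from, unless the library keeps the strand and the genes lie on opposite strands. An expression change assigned to one gene of a pair may therefore have its reads in the other.

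The arrangement differed between the pairs. TMEM265 (chr16:30740642-30745196, plus strand), a predicted transmembrane protein gene, begins inside the last exon of SRCAP (chr16:30698209-30741409, plus strand), which encodes the ATPase of a complex that places the histone variant H2A.Z into nucleosomes. MIR3917 (chr1:25906362-25906454, minus strand) is a microRNA gene inside STMN1 (chr1:25884181-25906991, minus strand), which encodes stathmin, a protein that destabilises microtubules. UTS2B (chr3:191267168-191330536, minus strand) encodes urotensin 2B, a peptide ligand of the urotensin receptor, and overlaps at its 5′ end with the 5′ end of CCDC50 (chr3:191329085-191398659, plus strand), a coiled-coil protein gene.

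In the remaining pairs the genes also lie on opposite strands. CCDC183-AS1 (chr9:136803927-136808848, minus strand) is an antisense noncoding gene that runs into the 3′ part of CCDC183 (chr9:136796338-136807741, plus strand), a coiled-coil protein gene. DPCD (chr10:101570560-101609662, plus strand), named for its deletion in a mouse model of primary ciliary dyskinesia, has an interval in the table that encloses all of POLL (chr10:101578882-101588270, minus strand), which encodes DNA polymerase lambda of base excision repair and end joining. The RefSeq start windows of this pair, chr10:101588071-101588370 for DPCD and chr10:101588221-101588520 for POLL, overlap, so that 1 annotated start of DPCD lies beside the start of POLL.

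The sequences below are those in which a read cannot be given to 1 gene from its position. The mature miR-3917 (RefSeq, GRCh38.p14, chr1:25906384-25906403, minus strand) is shown first with its seed, bases 2 to 8, in capitals, and again with its 5 bases outside STMN1 exons in capitals. The other lines are a coding exon piece of CCDC183 of 126 bases (chr9:136804502-136804627, plus strand) and one of POLL of 61 bases (chr10:101580248-101580308, minus strand), in both of which each base also lies in an exon of the antisense gene.
miR-3917 seed: gCUCGGACugagcagguggg
miR-3917 outside STMN1 exons: gcucggacugagcagGUGGG
CCDC183 shared exon: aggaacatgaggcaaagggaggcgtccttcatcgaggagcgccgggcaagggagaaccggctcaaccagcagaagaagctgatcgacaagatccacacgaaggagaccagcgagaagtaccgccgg
POLL shared exon: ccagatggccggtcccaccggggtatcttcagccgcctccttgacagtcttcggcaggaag

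The length of overlap ranged from 66 to 622 exon bases. TMEM265 and SRCAP shared 66 bases (chr16:30740642-30740707), annotated as UTR of both in GENCODE release 29. MIR3917 and STMN1 also shared 66 bases (chr1:25906389-25906454), 71.0% of the hairpin's 93 bases. There they lie in an STMN1 UTR exon, and the other 27 bases of the hairpin lie in an STMN1 intron. UTS2B and CCDC50 shared 467 bases in 2 pieces, CCDC183-AS1 and CCDC183 shared 622 bases in 7 pieces, and DPCD and POLL shared 243 bases in 2 pieces.

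How much of a gene was left to itself also differed. TMEM265 had 27 of its 1649 exon bases in no other gene. Of its bases, 94.4% lay in exons of other genes but not in those of SRCAP. AC106886.6 (chr16:30704067-30745169, plus strand) covered 1622 bases of TMEM265 and 10136 of SRCAP. CCDC183 had 26.4% of its bases to itself, against 68.8% for CCDC183-AS1. For UTS2B, DPCD, STMN1, CCDC50 and POLL the share was 85.6% to 98.9%.

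How shared reads had been counted was not stated, and it was examined in genes whose exon bases all lay in exons of exactly 1 other gene. There were 1507 such genes, 787 on the strand of the enclosing gene and 720 on the opposite strand. If shared reads had been discarded, these genes would be at 0, yet 72.3% of the same-strand genes and 72.1% of the opposite-strand genes had a count in some library. Among 41372 genes that shared no exon base with any gene, 55.7% had a count.

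None of the 9042 values of an enclosed gene in a library exceeded that of the enclosing gene. Of 490 enclosed genes with at least 60 counts in all, 16 reached 95% of the enclosing gene, 10 on the same and 6 on the opposite strand. AL139099.1, on the strand opposite to MGAT2, had 1735, 1246 and 2136 counts in VEZF1-WT, against 944, 1335 and 1364 in VEZF1-2A, beside 1745, 1248 and 2153, and 949, 1339 and 1374, for MGAT2. This pair was picked as the closest match on the opposite strand among enclosing genes with high counts. Its 2 genes tracked each other library by library, although they lie on opposite strands. In this table a read in a shared exon was thus counted for both genes in such cases, without regard to strand, and for the 5 pairs the smaller count of a pair is the most that shared reads can contribute to both.

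**Figure D1:**
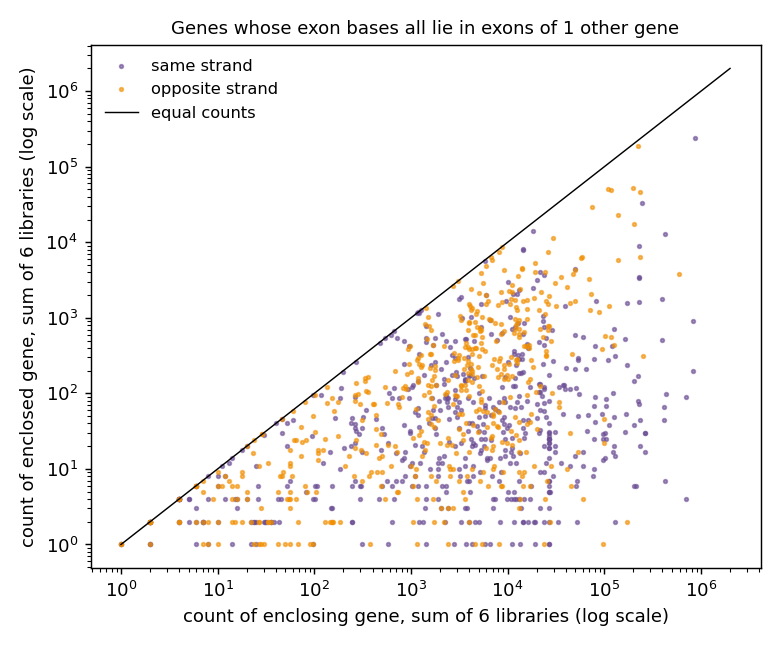
Counts of genes enclosed exon base by exon base in 1 other gene (vertical axis, log scale) against the counts of the enclosing gene (horizontal axis, log scale), each summed over the 6 libraries; genes at 0 are not drawn. All points lie on or under the line of equal counts, on both strands.

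The libraries held 28756765 to 57199396 counts, with 35272710 to 57199396 in VEZF1-WT and 28756765 to 39565464 in VEZF1-2A, and 19111 genes passed the filter on low counts. VEZF1 itself had 2807, 1623 and 2253 counts in VEZF1-WT, against 1346, 1944 and 1288 in VEZF1-2A, which is 48.3 ± 9.95 and 44.5 ± 5.06 CPM, the count scaled to library size (SD, n = 3). All 9 hepatocyte and HepG2 markers were tested, with summed CPM of 16020 to 20410 in VEZF1-WT and 15330 to 19810 in VEZF1-2A. The 6 markers of blood, endothelium and fibroblasts summed to 3.12 to 4.42 CPM and 4.13 to 5.70 CPM. Of these, 3 were tested and were lower in VEZF1-WT, none with an unadjusted p under 0.05, and their part in the results was not tested. Replicate 3 stood furthest from the others in both groups, with a chi-square per degree of freedom of 17.2 to 27.0 against 6.86 and 8.73 between replicates 1 and 2. From 65.7% to 67.6% of counts between 11 and 100 were even numbers, and 36 of the 60 counts of the members were even; whether counts are of independent fragments was not tested. In bulk RNA fewer cells of a type and less RNA per cell cannot be told apart.

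By edgeR's quasi-likelihood test, 0% of the genes tested had an adjusted p under 0.05 (0 of 19111, smallest adjusted p = 0.9996), 2.13% had an unadjusted p under 0.05 (408 genes), and in 7.36% (1406 genes) the 2 groups did not overlap in CPM. Without the filter on low counts, 16 genes had an adjusted p under 0.05, and DESeq2 called 3. All 10 members were tested. None had an adjusted p under 0.05, 6 had an unadjusted p under 0.05, and in 6 the groups did not overlap (TMEM265, MIR3917, UTS2B, CCDC183-AS1, CCDC183 and DPCD). Of these, 5 were chosen for such values, so nothing is read from the count. The log2 differences below are VEZF1-WT over VEZF1-2A with the standard error of the fit, and the median absolute log2 difference of all genes tested was 0.0735.

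The TMEM265 count, scaled to library size, was about 2 times as high in VEZF1-WT as in VEZF1-2A, at a low level. SRCAP was close to equal. Only 27 of the 1649 exon bases of TMEM265 lay in no other gene. The share of its counts that came from transcripts of other genes was not tested. TMEM265 had 97, 64 and 104 counts in VEZF1-WT, against 36, 32 and 28 in VEZF1-2A. In CPM these were 2.05, 1.80 and 1.85 against 1.24, 0.80 and 0.845. The lowest VEZF1-WT library was above the highest VEZF1-2A library. The log2 difference was 0.999 (SE 0.22), with the unadjusted p of 0.00115 by edgeR that chose it.

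SRCAP had 155.8, 145.9 and 145.6 CPM in VEZF1-WT, against 149.3, 140.6 and 143.2 CPM in VEZF1-2A. The groups overlapped, and the log2 difference was 0.05 (SE 0.06). The TMEM265 count was 1.32%, 1.23% and 1.27% of the SRCAP count in VEZF1-WT, against 0.827%, 0.569% and 0.59% in VEZF1-2A. These percentages did not overlap between the groups, and the log2 ratio was higher by 0.95 in VEZF1-WT.

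The TMEM265 difference of 0.937 CPM was smaller than the SD of SRCAP within either group, 5.83 CPM in VEZF1-WT and 4.48 CPM in VEZF1-2A. AC106886.6, which covers most exon bases of TMEM265, had 147 ± 6.17 CPM in VEZF1-WT, against 141.7 ± 4.48 in VEZF1-2A (SD, n = 3), a log2 difference of 0.05 (SE 0.06). AC106886.2, which shares 209 bases with TMEM265, had 17.3 ± 1.01 and 16.2 ± 0.976 CPM, and AC093249.6, which shares 253 bases with SRCAP, had a log2 difference of −0.12 (SE 0.18). On the log2 scale the genes that overlap TMEM265 or SRCAP differed by less than TMEM265, which was chosen for its difference. A change of 0.937 CPM would be small beside the level of AC106886.6, so nothing is read from this. Per kilobase of exon TMEM265 had 0.866 CPM and SRCAP 10.75 CPM.

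On either side of the pair, FBRS had a log2 difference of 0.07 (SE 0.06) and PHKG2, which lies 3096 bases past TMEM265 and encodes a subunit of phosphorylase kinase, 0.06 (SE 0.08). The groups overlapped in both. Among 10 other genes of the SRCAP complex and H2A.Z, 6 were higher and 4 lower in VEZF1-WT, none with an unadjusted p under 0.05, and the log2 differences ran from −0.03 to 0.12 with a median of 0.02. The most abundant were ACTL6A (201.8 CPM, log2 difference 0.11), an actin-like subunit, and the ATPases RUVBL1 (164.5 CPM, 0.00) and RUVBL2 (114.2 CPM, 0.08). VPS72, which binds H2A.Z, had 93.7 CPM and a log2 difference of −0.02. The H2A.Z genes, named after their values were seen, had 0.12 (H2AZ1) and −0.01 (H2AZ2).

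MIR3917 was higher in VEZF1-WT by a smaller fold than TMEM265, and STMN1 overlapped between the groups. The hairpin interval had 2531, 2003 and 2773 counts in VEZF1-WT, against 1354, 1541 and 1298 in VEZF1-2A. Scaled to library size these were 53.5, 56.2 and 49.2 CPM against 46.5, 38.5 and 39.2 CPM. The groups did not overlap, though replicate 3 of VEZF1-WT and replicate 1 of VEZF1-2A lay close to each other. The log2 difference was 0.36 (SE 0.08), and the unadjusted p by edgeR that chose it was 0.00163.

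STMN1 had 625.8, 534.8 and 599.8 CPM in VEZF1-WT, against 562.2, 525.6 and 619.4 CPM in VEZF1-2A. The groups overlapped throughout, and the log2 difference was 0.04 (SE 0.08). MIR3917 amounted to 8.55%, 10.5% and 8.20% of the STMN1 count in VEZF1-WT, against 8.26%, 7.32% and 6.32% in VEZF1-2A. These percentages overlapped, unlike the CPM of MIR3917 itself, because replicate 1 of VEZF1-2A was above replicate 3 of VEZF1-WT. The log2 ratio was higher by 0.32 in VEZF1-WT, and by 0.21 without VEZF1-WT replicate 2.

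With 93 bases, MIR3917 had 507.2 CPM per kilobase, ranging from 414 to 604.5 over the libraries, against 92.5 for STMN1 over its 6247 exon bases. A read that reaches beyond so short an interval may still count for it, so these values cannot be compared as coverage. The 11.6 CPM by which MIR3917 differed was 17.7 CPM for STMN1, whose SD was 46.9 CPM in VEZF1-WT and 47.2 in VEZF1-2A. Libraries made with an mRNA kit are not built to capture mature microRNAs, so these counts are those of reads over the hairpin interval and give no level of the mature miR-3917 shown above. The share of them that came from STMN1 transcripts was not tested.

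PAQR7 and PAFAH2, the nearest genes to the sides, had log2 differences of −0.06 (SE 0.11) and −0.07 (SE 0.12), with overlapping groups. Of the other stathmins, STMN3 had 11.5 CPM and a log2 difference of −0.04 (SE 0.31), STMN4 had 0.249 CPM and was not tested, and the neuronal STMN2 was at 0 in every library.

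UTS2B was higher in VEZF1-WT and CCDC50 was level. UTS2B had 514, 458 and 570 counts in VEZF1-WT, against 251, 339 and 256 in VEZF1-2A, or 10.9, 12.9 and 10.1 CPM against 8.61, 8.47 and 7.72 CPM. The groups did not overlap, and the highest library was replicate 2 of VEZF1-WT. Its log2 difference was 0.44 (SE 0.11), and 0.34 without that library. The unadjusted p by edgeR that chose it was 0.00264.

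CCDC50 was the steadiest of the 10 genes, with a coefficient of variation of 1.24% within groups and 187.1, 187.8 and 186.3 CPM in VEZF1-WT, against 186.5, 183.1 and 180.3 CPM in VEZF1-2A. The groups overlapped, and the log2 difference was 0.03 (SE 0.05). UTS2B counts were 5.80%, 6.85% and 5.43% of CCDC50 in VEZF1-WT, against 4.62%, 4.63% and 4.28% in VEZF1-2A, which did not overlap. The log2 ratio differed by 0.41. The smaller count allows at most 4.28% to 6.85% of CCDC50 reads to be shared with UTS2B. By the same bound all UTS2B reads could be shared with CCDC50. Per kilobase of exon CCDC50 had 20.2 CPM and UTS2B 2.54, and 467 bases are shared. The share of UTS2B reads that came from CCDC50 transcripts was not tested. With UTS2B subtracted, CCDC50 had 175.8 ± 0.755 and 175 ± 2.71 CPM (SD, n = 3). This also takes out any reads of UTS2B alone.

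The peptide's paralogue UTS2 had 0.256 CPM and a log2 difference of 0.84 (SE 0.65), with overlapping groups, and the receptor gene UTS2R was too low to be tested, with 0 to 4 counts a library. IL1RAP, which encodes an interleukin-1 receptor subunit on the side of UTS2B, had a log2 difference of −0.01 (SE 0.14). AC073365.1, on the side of CCDC50, had 0.46 (SE 0.44) from 4 to 32 counts.

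**Figure D2:**
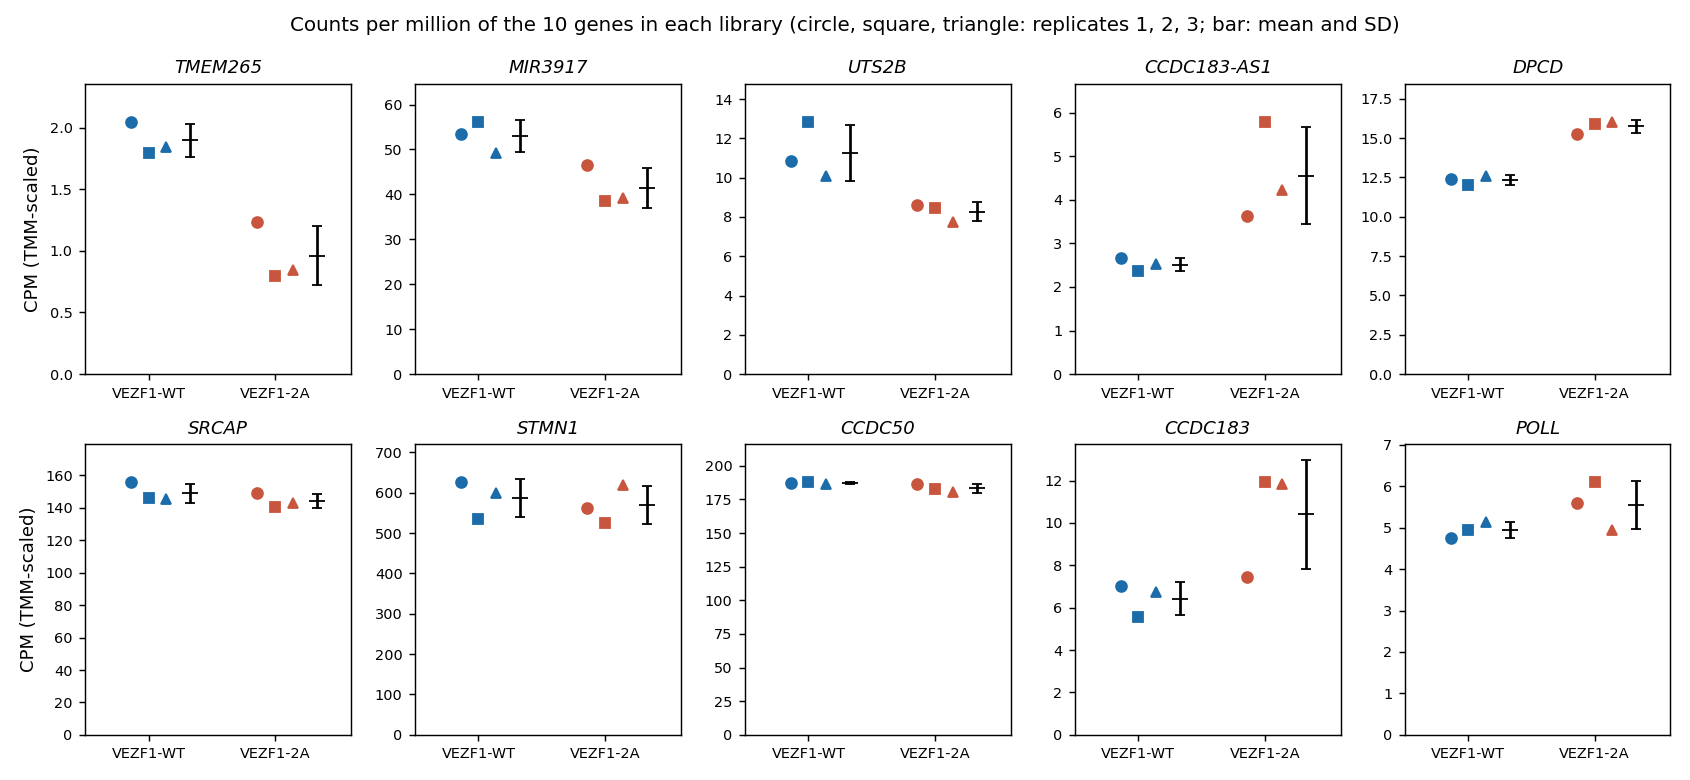
CPM of each gene in the 6 libraries, with the gene chosen by its p-value above its partner; symbols mark replicates 1 to 3 and bars the mean and SD of each group. In the upper row the groups are apart in each of the 5 genes; in the lower row they are apart in CCDC183 and overlap in SRCAP, STMN1, CCDC50 and POLL.

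Both CCDC183-AS1 and CCDC183 were lower in VEZF1-WT, unlike the pairs above. CCDC183-AS1 had 126, 84 and 142 counts in VEZF1-WT, against 106, 232 and 140 in VEZF1-2A, or 2.66, 2.36 and 2.52 CPM against 3.64, 5.80 and 4.22 CPM. The VEZF1-WT libraries lay close together and the VEZF1-2A libraries spread widely, with replicate 2 highest. The log2 difference was −0.86 (SE 0.18), with the unadjusted p of 0.000751 by edgeR that chose it, and −0.64 without replicate 2 of VEZF1-2A.

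CCDC183 had 332, 198 and 379 counts in VEZF1-WT, against 217, 477 and 393 in VEZF1-2A. The corresponding CPM were 7.01, 5.56 and 6.73 against 7.45, 11.9 and 11.9. Replicate 1 of VEZF1-2A was only just above the highest VEZF1-WT library, and the other VEZF1-2A libraries were well above it. The log2 difference of CCDC183 was −0.69 (SE 0.17). Without the filter on low counts, CCDC183 and CCDC183-AS1 had adjusted p-values of 0.000374 and 0.00305 by edgeR, and MIR3917 one of 0.00987. These come from the comparison that chose CCDC183-AS1 and MIR3917, and CCDC183 may share reads with CCDC183-AS1, so nothing is read from them. For MIR3917 the log2 difference was 0.37 (SE 0.08) without the filter, against 0.36 (SE 0.08) with it.

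Within a library CCDC183-AS1 was 38.0%, 42.4% and 37.5% of the CCDC183 count in VEZF1-WT, against 48.9%, 48.6% and 35.6% in VEZF1-2A. The groups overlapped, and the log2 ratio differed by −0.16, by −0.31 without VEZF1-2A replicate 3 and by −0.08 without VEZF1-2A replicate 1. Up to 48.9% of CCDC183 reads could therefore be shared with the antisense gene. With CCDC183-AS1 subtracted, CCDC183 had 4.35, 3.20 and 4.21 CPM in VEZF1-WT, against 3.81, 6.12 and 7.63 CPM in VEZF1-2A. The subtraction takes out reads counted for both, but also those of CCDC183-AS1 alone, which had 68.8% of its bases to itself. It does not give the level of CCDC183 without shared reads. In this difference the groups overlapped, since replicate 1 of VEZF1-2A lay within the VEZF1-WT range. The means were 3.92 ± 0.627 and 5.85 ± 1.93 CPM (SD, n = 3). Across the 6 libraries the log2 CPM of the genes had a Pearson r of 0.921, given as a description of genes that share reads and libraries.

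Genes around this pair did not all behave alike. TMEM141, a transmembrane protein gene that ends 3020 bases before CCDC183 and shares no exon base with it, had 19.2, 17.3 and 18.4 CPM in VEZF1-WT, against 18.7, 25.5 and 24.4 CPM in VEZF1-2A. As in CCDC183, replicate 1 of VEZF1-2A lay near the VEZF1-WT libraries and the others above them, and the groups overlapped. The log2 difference of TMEM141 was −0.32 (SE 0.11), with an unadjusted p of 0.0153 by edgeR that did not hold on adjustment over all genes (adjusted p = 0.9996).

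AL355987.3 (chr9:136791379-136800595, plus strand), whose interval begins within TMEM141 and which shares 497 exon bases with CCDC183, had 19.96, 18.27 and 19.48 CPM against 19.4, 27.3 and 25.8 CPM. Its log2 difference was −0.33 (SE 0.11) with overlapping groups and an unadjusted p of 0.0161 by edgeR (adjusted p = 0.9996). Its counts of 945, 651 and 1098 in VEZF1-WT, against 565, 1091 and 854 in VEZF1-2A, ran close to those of TMEM141. The latter had 911, 616 and 1036, against 544, 1020 and 808. Whether these are largely the same reads was not tested, so they are not taken as separate observations. Other genes of the locus were level in their total counts, which say nothing of single exons. AL355987.4, which shares 1843 bases with CCDC183 and 643 with CCDC183-AS1, had 48.7 ± 1.47 and 49.5 ± 1.63 CPM (SD, n = 3), a log2 difference of −0.02. AL355987.2 had 47.8 ± 1.34 and 47.6 ± 1.36 CPM, and NCLP1, on the far side of CCDC183-AS1, a log2 difference of 0.04 (SE 0.12).

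For this pair, whose genes were lower together, the 250 bases before each RefSeq start (GRCh38.p14) are shown, CCDC183 at chr9:136796088-136796337 on the plus strand and CCDC183-AS1 at chr9:136808849-136809098 on the minus strand. A run of 6 guanines, GGGGGG on either strand, was searched for because VEZF1 binds such runs, and neither stretch holds one, so no letters are in capitals.
CCDC183 upstream: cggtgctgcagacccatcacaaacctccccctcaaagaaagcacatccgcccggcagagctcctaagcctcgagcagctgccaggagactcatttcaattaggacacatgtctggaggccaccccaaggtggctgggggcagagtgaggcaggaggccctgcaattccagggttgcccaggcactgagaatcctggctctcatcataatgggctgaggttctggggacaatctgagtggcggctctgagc
CCDC183-AS1 upstream: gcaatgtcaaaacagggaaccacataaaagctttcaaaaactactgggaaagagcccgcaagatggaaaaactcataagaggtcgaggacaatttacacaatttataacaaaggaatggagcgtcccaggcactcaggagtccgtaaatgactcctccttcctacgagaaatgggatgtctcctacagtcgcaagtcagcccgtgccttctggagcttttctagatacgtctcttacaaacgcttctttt

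Over the whole 300-base windows of RefSeq, which also take in the first bases of the transcript, the run was in 6615 of 35116 windows (18.8%). Among the members, 7 genes had 10 windows. The run was in 6 of these, from the 5 genes SRCAP, STMN1, CCDC183, POLL and DPCD, and in none of UTS2B and CCDC183-AS1. Windows of POLL and DPCD overlap, so the same run may be counted more than once, and not all STMN1 windows held it. In CCDC183 it lay past the start. A match to these letters is no evidence of binding, and their absence says nothing of the factor.

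DPCD was lower in VEZF1-WT, with libraries that lay close together in both groups, while POLL overlapped. DPCD had 587, 428 and 711 counts in VEZF1-WT, against 445, 636 and 532 in VEZF1-2A. In CPM these were 12.4, 12.0 and 12.6 against 15.3, 15.9 and 16.1. The SD was 0.305 CPM in VEZF1-WT and 0.412 in VEZF1-2A. Choice by a small p favours a wide gap beside a small SD, so nothing is read from the spacing. The log2 difference was −0.35 (SE 0.08), between −0.37 and −0.33 with each library left out in turn, and the unadjusted p by edgeR that chose it was 0.00111.

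POLL had 4.75, 4.94 and 5.13 CPM in VEZF1-WT, against 5.59, 6.10 and 4.95 CPM in VEZF1-2A. Of the latter, replicate 3 fell among the VEZF1-WT libraries, and the other VEZF1-2A libraries were above them. The log2 difference was −0.17 (SE 0.12), −0.25 without replicate 3 of VEZF1-2A and −0.09 without replicate 2. DPCD counts were 260.9%, 243.2% and 246% of POLL in VEZF1-WT, against 273%, 260.7% and 324.4% in VEZF1-2A. These overlapped, with a difference in log2 ratio of −0.19, and of −0.09 without VEZF1-2A replicate 3.

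With POLL subtracted, DPCD had 7.65, 7.07 and 7.49 CPM in VEZF1-WT, against 9.68, 9.79 and 11.1 CPM in VEZF1-2A. The groups stayed apart in this difference. The subtraction also takes out reads of POLL alone, which had 95.5% of its bases to itself. It does not give the level of DPCD without shared reads. Per kilobase of exon DPCD had 8.30 CPM and POLL 0.967. FBXW4, an F-box gene that begins 1001 bases past DPCD, had a log2 difference of −0.03 (SE 0.12). BTRC, another F-box gene on the other side, had 23.8 ± 0.557 CPM in VEZF1-WT, against 25.2 ± 0.322 in VEZF1-2A (SD, n = 3), which did not overlap, and a log2 difference of −0.08 (SE 0.06).

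Other genes of the polymerase's pathways were level. POLB, the main polymerase of base excision repair, had 16.0 CPM and a log2 difference of 0.01 (SE 0.08), and POLM, an end-joining polymerase, 1.43 CPM and 0.13 (SE 0.21). DNTT, which is restricted to lymphoid cells, was too low to be tested. All 4 base excision genes tested (XRCC1, LIG3, APEX1 and PARP1) had log2 differences between −0.00 and 0.03, and the 6 end-joining genes, the most abundant of which were XRCC5, XRCC6, PRKDC and NHEJ1, between 0.01 and 0.07. None had an unadjusted p under 0.05 by edgeR.

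Set side by side, the pairs fell into different patterns. Both genes had the same sign in all 5 pairs. Reads counted for both genes draw their signs together, and the differences of SRCAP, STMN1 and CCDC50 were smaller than their standard errors. Nothing is therefore read from this agreement. In the pairs of SRCAP, STMN1 and CCDC50 the partner had a log2 difference of 0.03 to 0.05, and the summed pair 0.05 to 0.07, since the partner held most of the counts. These values moved by more than 1.5 times with single libraries. SRCAP was 0.01 without VEZF1-WT replicate 1, 0.03 without VEZF1-2A replicate 2 and 0.07 without VEZF1-2A replicate 1, and its summed pair was 0.02 without VEZF1-WT replicate 1 and 0.04 without VEZF1-2A replicate 2. STMN1 was −0.01 without VEZF1-WT replicate 1 or VEZF1-2A replicate 2, 0.03 without VEZF1-WT replicate 3, and 0.11 without VEZF1-WT replicate 2 or VEZF1-2A replicate 3. Its summed pair was 0.02 without VEZF1-WT replicate 1, 0.01 without VEZF1-2A replicate 2, 0.12 without VEZF1-WT replicate 2 and 0.13 without VEZF1-2A replicate 3. CCDC50 was 0.02 without VEZF1-2A replicate 3, and its summed pair stayed between 0.04 and 0.06. In the CCDC183 pair the sum differed by −0.74 and in the POLL pair by −0.30. Summed counts include a shared read more than once if it was counted for both genes.

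**Figure D3:**
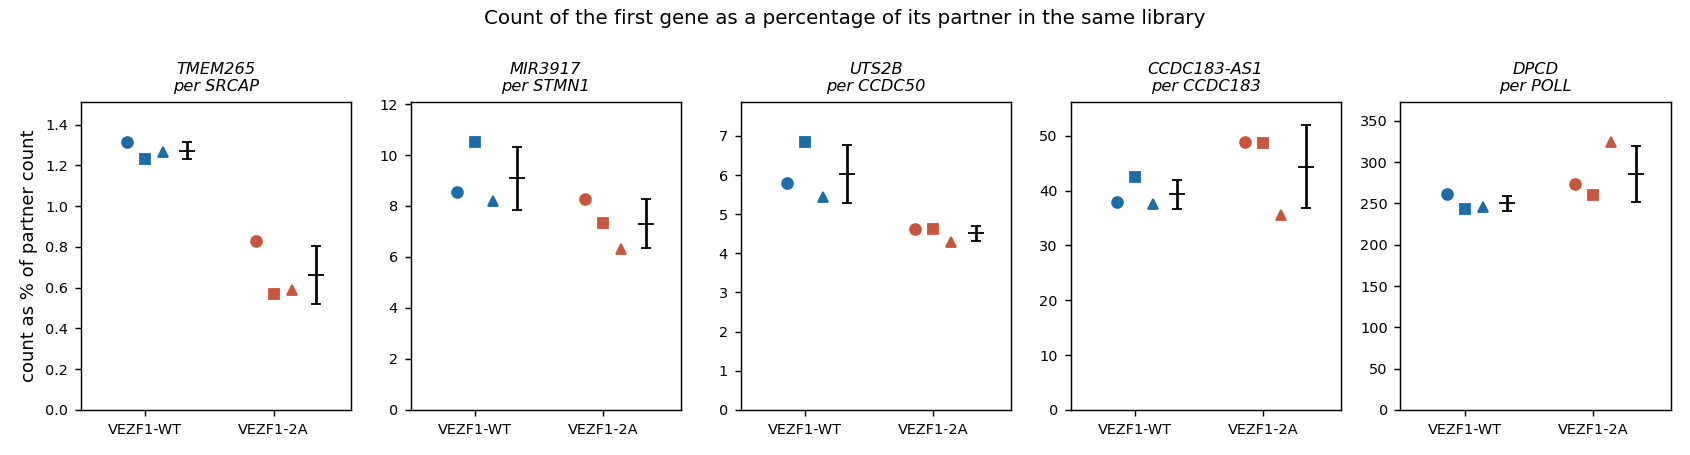
Count of the gene chosen by its p-value as a percentage of its partner's count in the same library, with the mean and SD of each group at the side; symbols mark replicates 1 to 3. TMEM265 per SRCAP (1.23% to 1.32% against 0.569% to 0.827%) and UTS2B per CCDC50 (5.43% to 6.85% against 4.28% to 4.63%) did not overlap between the groups, and the other 3 percentages did.

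The gene most like each gene chosen by p over the 6 libraries lay outside its pair. With 1 partner among 15221 candidates this is likely whatever the data, so nothing is read from it. Among 15221 genes with a mean of at least 1 CPM, the gene most like TMEM265 in log2 CPM was AC036214.3 (Pearson r = 0.979). The most like MIR3917 was MED24 (r = 0.989), the most like UTS2B was AC015871.8 (0.997), the most like CCDC183-AS1 was PTPN18 (0.984) and the most like DPCD was GRAMD1A (0.991). From 13 to 31 genes reached 0.95 with each, which with 6 points from shared libraries is a description only. The partner ranked 55 for CCDC183-AS1 (CCDC183), 313 for UTS2B, 645 for TMEM265, 1001 for DPCD and 6869 for MIR3917 (STMN1, r = 0.077).

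The members just inside the choice were UTS2B and DPCD, the third of each direction. Just outside it were EME2, a subunit of a structure-specific endonuclease, with 39.8 ± 3.27 CPM in VEZF1-WT, against 33.0 ± 0.712 in VEZF1-2A, and NFKBIA, the NF-kB inhibitor, with 56.4 ± 2.31 and 67.9 ± 2.44 (SD, n = 3). Their log2 differences were 0.27 (SE 0.07) and −0.27 (SE 0.06).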

How the data were processed

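RNA-seq counts of 6 HepG2 libraries, 3 per group by their titles, were analysed. The authors deposited raw read counts per gene on GRCh38, with the exon positions of each gene; the aligner, counter, strand setting and annotation release are not given in the sources used here. Of 54881 names also in GENCODE release 29, 73.8% had identical positions, so that release served only to class exon pieces. From 59613 lines, 5 broken ones were left out. Members, lists and the motif were chosen with earlier results of these data known.

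Exon overlaps were computed from the deposited positions on either strand. Genes were kept by filterByExpr (minimum count 10, minimum total 15), scaled by TMM and fitted with the quasi-likelihood test of edgeR 4.0.16 in R 4.3.3 on all 19111 genes, two-sided, with Benjamini-Hochberg adjustment (common biological coefficient of variation 9.71%). Library size times TMM factor gave CPM. Pair ratios used a pseudocount of 0.5 counts, and likeness 0.1 CPM. The pair sum was planned for reads moved between genes; since reads appeared under both genes, it adds them more than once. The scripts were tested on simulated data. Alternatives were DESeq2 1.42.0, other scalings, filters, prior and pseudocounts, a replicate block, summed pairs and each library left out. Genes named beside the members were those sharing exons with them, the nearest tested gene on each side, the gene most alike, the first gene outside the choice in each direction, VEZF1 and up to 4 genes of each pathway list by abundance; H2AZ1 and H2AZ2 were named outside that rule.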

Additional observations from a re-analysis of the deposited data

How the results depend on the processing

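By edgeR 0 genes had an adjusted p under 0.05, against 16 without the filter on low counts, 3 with DESeq2 and 6 with the replicate block, and 0 with each library left out. At an unadjusted p under 0.05 there were 408 genes, against 219 with DESeq2, 896 without the filter, 825 with the replicate block and 292 to 973 with each library left out (973 without VEZF1-2A replicate 3). No member had an adjusted p under 0.05 except MIR3917, CCDC183-AS1 and CCDC183 without the filter. The same comparison chose the members, so nothing is read from these values, and the cause of the change was not tested. Same-numbered libraries correlated at 0.079, 0.144 and 0.362 in their deviations from the group means. Replicate 3 of each group correlated at −0.274 to −0.102 with the other numbers of the other group. VEZF1-WT replicate 2 correlated slightly more with VEZF1-2A replicate 1 (0.164) than with its own number. The labels do not say what a shared number marks, so the numbers were not taken as pairs. What set replicate 3 apart was not tested. The log2 difference kept its sign in 9 of the members in all 15 alternatives. That of STMN1 ran from −0.01 to 0.11 and changed sign in 2. In 6 members the groups did not overlap, and the alternatives refit the comparison that chose members. Nothing is therefore read from the kept signs. TMEM265 ran from 0.88 to 1.21, MIR3917 from 0.31 to 0.45, UTS2B from 0.34 to 0.52, CCDC183-AS1 from −0.996 to −0.64, CCDC183 from −0.88 to −0.58, POLL from −0.25 to −0.09, SRCAP from 0.01 to 0.07 and CCDC50 from 0.02 to 0.04. Summed pairs ran from 0.02 to 0.08 (SRCAP), 0.01 to 0.13 (STMN1) and 0.04 to 0.06 (CCDC50). TMEM265 had the lowest counts of the members, 28 to 104 a library.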

Other observations

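Sharing of exons was common in the table. Of the genes tested, 55.3% shared exon bases with another gene, 43.5% with one on the opposite strand, and 63 of the 100 genes with the smallest p-values by edgeR shared some. An unadjusted p under 0.05 was seen in 2.23% of genes that shared exon bases and in 2.02% of those that did not, and the groups did not overlap in 7.74% and 6.89%. The difference between these shares was not tested.

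MicroRNA genes such as MIR3917 had counts although the library kit was made for mRNA. Of 1910 in the table, 669 had a count, and 127 genes of at most 200 bases were tested, of which 95 shared exon bases with another gene. MIR3917 ranked 5 of the 127 by mean CPM, against a median of 0.769 CPM and a highest value of 976.7 CPM for MIR3652. Of 146 microRNA genes tested at any length, 6 (4.11%) had an unadjusted p under 0.05 by edgeR and none an adjusted one, though MIR3917 did without the filter on low counts. Of 576 numbered antisense genes such as CCDC183-AS1, 16 (2.78%) had an unadjusted p under 0.05, and 87.8% shared exon bases with a gene on the opposite strand.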
